A study of Drosophila melanogaster with 6 samples.

Results

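RNA methyltransferase genes other than Fib are described here in the Drosophila melanogaster cell line S2R+, after RNA interference aimed at Fibrillarin (Fib), the enzyme that methylates ribosomal RNA at ribose positions chosen by box C/D snoRNAs. The genes were chosen by name, not by a measured value, though earlier results of these data were known. They are cap, m6A, small RNA and tRNA methyltransferase genes and their cofactors. Of 9 names, 7 are gene names in the deposited tables (Mettl3, Mettl14, fl(2)d, vir, nito, Hen1 and Mt2), out of 23932 genes listed. The names CMTr1 and CMTr2 are not gene names there. A RefSeq gene table of the same assembly gives them as synonyms of loci that the deposited tables list as CG6379 and aft, and those genes are described beside the 7 members without being counted among them.

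Total RNA was depleted of ribosomal RNA and sequenced by TGIRT-seq, in which a group II intron reverse transcriptase copies long RNAs and structured small RNAs into the same library. All cells were S2R+, an established fly line from late embryos, with no transgene named in the labels. Long double-stranded RNA was used for interference. It matched the bacterial lacZ gene, which flies lack, for the 3 control libraries (dsLacZ), and 3 libraries are labelled as Fib knockdown (dsFib). Separate cultures are not stated within a group, and p-values therefore measure a spread between libraries that may be technical. In bulk RNA, fewer cells with a transcript and less transcript per cell cannot be told apart.

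Methyl groups are added to RNA by several enzyme families. N6-methyladenosine (m6A) is written on mRNA by a complex in which Mettl3 is the catalytic subunit, Mettl14 its structural partner, and fl(2)d, vir and nito are cofactors, the fly counterparts of human WTAP, VIRMA and RBM15; in flies the complex acts in splicing of Sxl, the sex determination switch. CMTr1 and CMTr2 methylate the ribose next to the mRNA cap, Hen1 methylates the 3′ ends of siRNAs and piRNAs, and Mt2, the fly Dnmt2, methylates a cytosine in the anticodon loop of a few tRNAs.

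The libraries held 11695250 to 15172052 counts. In dsLacZ replicate 2, nuclear tRNA took 18.3% of the counts, against 10.8% and 11.1% in the other control libraries and 13.4% to 15.3% in the dsFib-labelled libraries. A first list of 12 markers held fz, chosen to tell S2R+ from S2 cells, and genes of hemocytes, the lineage that S2R+ cells resemble. Of the 12, 8 had a mean of at least 1 CPM (counts scaled to the library total). He was at 0, and NimC1, Sr-CI and eater had means of 0.18, 0.30 and 0.77 CPM. The summed level of these 12 markers was 453.6 to 556.6 CPM in control cells and 469.6 to 559.2 CPM in the dsFib-labelled ones. The largest part was crq, with a mean of 261.1 CPM, while srp had 28.9 and Hml 8.92 CPM. Of 14 markers of neurons, germ line, muscle and ovarian soma, 4 reached a mean of 1 CPM. These were elav, bam, Mef2 and fs(1)Yb, at 26.9, 10.9, 30.2 and 44.5 CPM. No marker of either list passed the edgeR test. An unadjusted edgeR p below 0.05 was found for 3 of 9 tested genes of the first list, fz, Hml and Col4a1. It was also found for 1 of 5 tested genes of the second, Mef2. All lay in the higher direction, where 7.67% of all genes tested had such a p. DESeq2 called 1 of the markers, fz, where it called 320 of all 8302 genes tested, and limma-voom called 0 markers.

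The targeted gene went against its label. From here on, CPM is TMM-scaled, except for genes at 0. The library total is multiplied by a factor, from 0.895 for dsLacZ replicate 2 to 1.12 for dsLacZ replicate 1. Control libraries 1, 2 and 3 had 213.9, 257.4 and 227.4 CPM of Fib, and it was at 1312, 954.9 and 994.3 CPM in the dsFib-labelled ones. The edgeR fit gave Fib a log2 fold change of 2.22 with SE 0.15 (adjusted p = 0.00103 by Benjamini-Hochberg). With the replicate number as a block the log2 fold change was 2.21 and Fib did not pass (edgeR adjusted p = 0.0602). Whether RNA of the Fib double-stranded template was counted as Fib was not tested. Every direction below is therefore that of the dsFib-labelled libraries against dsLacZ, and says nothing about the amount of Fibrillarin protein.

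None of the 7 methyltransferase genes passed the edgeR test between the groups, at an adjusted p of 0.05 over all 8302 genes tested, of which 0.903% passed. DESeq2 and limma-voom called 0 of the 7 as well, and 320 and 67 of all 8302 genes tested. All 7 passed the filter on low counts. Before adjustment, 1 of the 7 had p below 0.05 (Mettl14, lower), where 15.9% of all genes tested passed in either direction. Of the log2 fold changes, 4 lay above 0 and 3 below, with a median of 0.12, against a median of -0.01 for all genes tested. In TMM-scaled CPM the groups did not overlap for 2 of the 7, Mettl14 (lower) and fl(2)d (higher). On that scale 23.2% of all genes tested did not overlap. In absolute size the median log2 fold change was 0.30, against 0.19 for all genes tested, and the largest was that of Hen1, which had few counts.

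**Figure D1:**
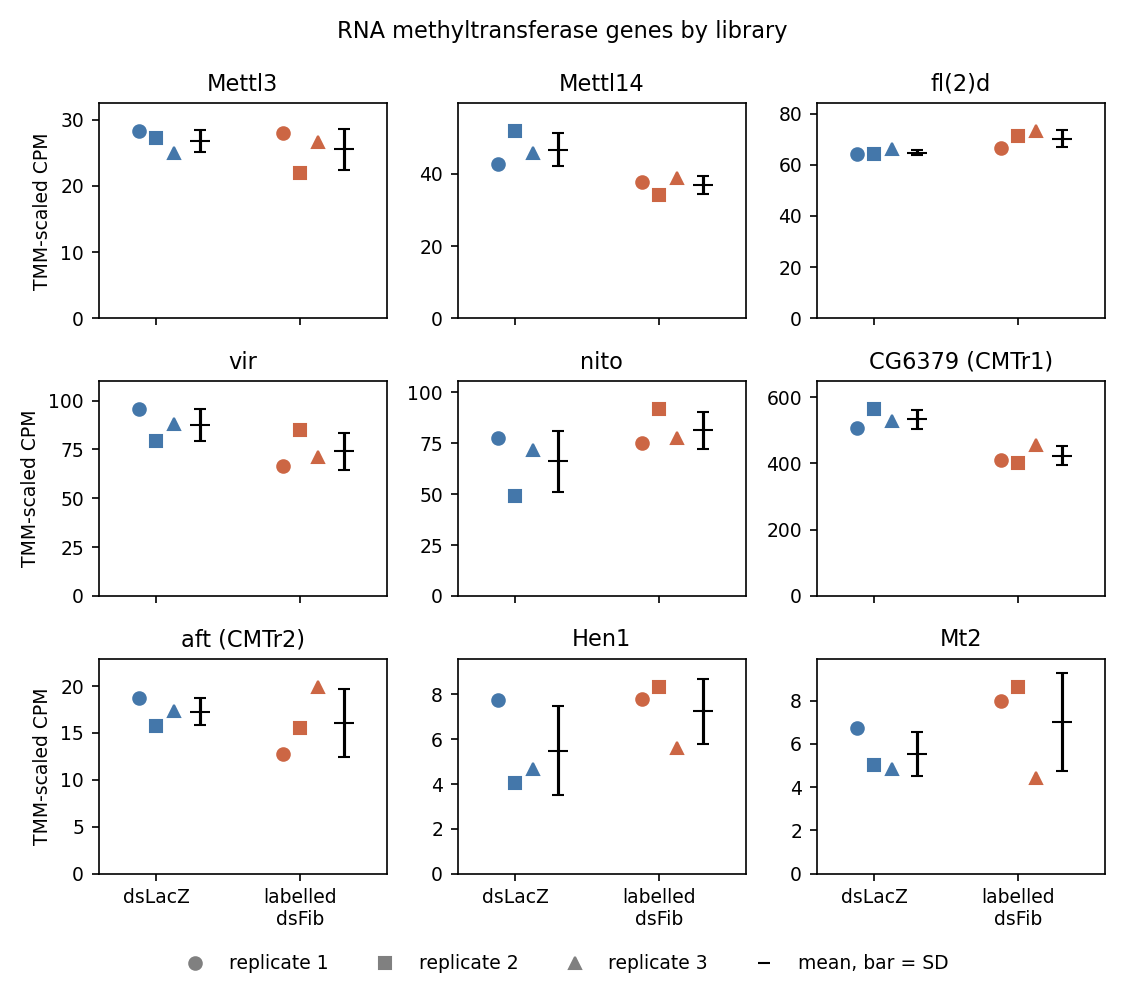
TMM-scaled CPM (vertical axes, each from 0) of the 7 member genes and of CG6379 and aft in each library; symbols stand for the replicate number and black marks for mean and SD over 3 libraries. The groups stand apart for Mettl14, fl(2)d and CG6379 and overlap for the other 6 genes.

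The catalytic pair of the m6A complex was measured at moderate depth. Mettl3 (FBgn0039139; 3R, 24032157 to 24034257, plus strand, dm6 coordinates), which transfers the methyl group, had 28.2, 27.2 and 25.0 CPM in control libraries 1, 2 and 3, and 28.0, 22.0 and 26.6 CPM in the dsFib-labelled ones. The groups overlapped, and replicate 2 labelled dsFib was the lowest of the 6. The log2 fold change of Mettl3 was -0.07 (SE 0.13, 95% interval -0.37 to 0.23; edgeR adjusted p = 0.840), so the data leave room for a level between 0.772 and 1.17 times that of the control. For Mettl3 it ran from -0.14 without dsFib replicate 1 to 0.037 without dsFib replicate 2.

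Mettl14 (FBgn0032016; 2L, 8308427 to 8309961, plus strand), the partner that supports RNA binding, had 42.6, 51.7 and 45.8 CPM in control cells and 37.8, 34.0 and 38.7 CPM in the dsFib-labelled ones. All 3 control libraries lay above all 3 others. The means were 46.7 ± 4.62 and 36.8 ± 2.52 CPM (SD, n = 3 each), and the log2 fold change was -0.34 (SE 0.11, 95% interval -0.60 to -0.09). This is 1.27-fold lower, with an edgeR adjusted p = 0.199, which does not pass. The value stayed between -0.39 and -0.26 with any 1 library left out. The 3′ end of Mettl14 shares 86 exon bases with CG7810 on the other strand, which had a mean of 58.7 counts per library, and the sources used here do not say whether counting used strand.

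The 3 cofactor genes had higher mean CPM than the catalytic pair, and none passed. For fl(2)d (FBgn0000662; 2R, 13819624 to 13824553, minus strand), the WTAP counterpart that holds the complex together, the levels were 64.2, 64.1 and 66.1 CPM in control cells and 66.4, 71.1 and 73.1 CPM in the dsFib-labelled ones. On this TMM scale the groups did not overlap, but the nearest libraries differed by less than 1 SD. Scaled to the library total alone, fl(2)d had 71.8, 57.3 and 68.4 CPM in control cells. The dsFib-labelled libraries then had 64.2, 74.4 and 69.6 CPM, and the groups overlapped. The log2 fold change of fl(2)d was 0.12 (SE 0.09, 95% interval -0.08 to 0.31, edgeR adjusted p = 0.564). It is the member with the narrowest interval, which spans 0.946 to 1.24 times the control level.

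The large scaffold gene vir (FBgn0003977; 2R, 23360192 to 23366355, minus strand) had 95.7, 79.1 and 88.0 CPM in control cells and 66.5, 84.8 and 71.1 CPM in the dsFib-labelled ones. Replicate 2 labelled dsFib lay within the control range and the other two below it. The log2 fold change was -0.24 (SE 0.12, 95% interval -0.52 to 0.03, edgeR adjusted p = 0.375). For vir it ran from -0.34 without dsFib replicate 2 to -0.16 without dsLacZ replicate 1. The RNA-binding cofactor gene nito (FBgn0027548; 2R, 7962463 to 7969805, plus strand) had 77.6, 49.1 and 71.8 CPM in control cells and 74.9, 91.8 and 77.4 CPM in the dsFib-labelled ones. Its lowest value was that of dsLacZ replicate 2, the library with the largest tRNA share. The log2 fold change of nito was 0.30 (SE 0.17, 95% interval -0.09 to 0.68, edgeR adjusted p = 0.430) with all libraries. For nito it was 0.12 without that library and 0.44 without dsLacZ replicate 1. Exons of nito share 442 bases with CG8726 and 300 bases with CG14763, both on the other strand, with means of 331.2 and 1 counts, and exons of vir share 75 bases with Mthfs (28.2 counts).

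The balance of transcripts within a library does not depend on scaling between libraries. Ratios of TPM (a level per transcript length, as deposited) were formed for all 21 pairs of the 7 members, and 4 of the ratios separated the groups without overlap. Of the ratios of all pairs of tested genes with a count in every library, 21.3% did so, a share near that of the members. The 4 are pairs of m6A complex genes, to which all members but Hen1 and Mt2 belong. Hen1 and Mt2 had the fewest counts. Mettl14 to fl(2)d had log2 ratios of 0.28, 0.56 and 0.34 in dsLacZ and 0.05, -0.20 and -0.05 in the dsFib-labelled libraries. Its difference of the group means was -0.45. Mettl14 to nito went from 1.03 ± 0.49 to 0.37 ± 0.26, with dsLacZ replicate 2 highest at 1.59 and the nearest libraries of the groups at 0.65 and 0.52. The ratio of nito to vir went from 0.12 ± 0.23 to 0.69 ± 0.03, and fl(2)d to vir from 0.76 ± 0.14 to 1.12 ± 0.16 (mean ± SD of log2 ratios, n = 3 each). The ratio of the catalytic pair, Mettl14 to Mettl3, was 1.29 ± 0.18 and 1.02 ± 0.10, and these groups overlapped. The pairs share genes and libraries, so the 4 are not separate observations.

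The cap methyltransferase genes are outside the 7 members because of their names in the tables. CG6379 (FBgn0029693; X, 4097592 to 4101031, minus strand), the locus of CMTr1, had higher levels than any of the 7 members in all 6 libraries. Its levels were 507.7, 564.0 and 528.7 CPM in control cells and 411.1, 402.4 and 456.9 CPM in the dsFib-labelled ones, with all control libraries above all others. The means were 533.5 ± 28.4 and 423.5 ± 29.3 CPM (SD, n = 3 each), and the log2 fold change of CG6379 was -0.33 (SE 0.10, 95% interval -0.57 to -0.10). This is 1.26-fold lower, with an edgeR adjusted p = 0.177, which does not pass; DESeq2 gave an adjusted p = 0.0966.

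The other cap gene, aft (FBgn0026309; 2R, 17786135 to 17788556, plus strand), the locus of CMTr2, had 18.7, 15.8 and 17.3 CPM in control cells and 12.7, 15.5 and 19.9 CPM in the dsFib-labelled ones. The libraries labelled dsFib held both the lowest and the highest value. Its log2 fold change was -0.10 (SE 0.18, 95% interval -0.52 to 0.32; edgeR adjusted p = 0.835), and for aft it was 0.037 without dsFib replicate 1 and -0.29 without dsFib replicate 3. Exons of aft share 145 bases with Ubc10 on the other strand, which had 177.7 counts on average.

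Hen1 and Mt2 had the fewest counts of the 7. Hen1 (FBgn0033686; 2R, 12145710 to 12152752, plus strand) was counted 106, 48 and 66 times in dsLacZ and 88, 112 and 81 times in the dsFib-labelled libraries. As scaled levels these are 7.75, 4.03 and 4.69 CPM against 7.79, 8.35 and 5.60 CPM, so that dsLacZ replicate 1 lay within the range of the dsFib-labelled libraries. The log2 fold change of Hen1 was 0.39 (SE 0.30, 95% interval -0.29 to 1.08; edgeR adjusted p = 0.577), and it was 0.74 without dsLacZ replicate 1 and 0.22 without dsLacZ replicate 2. The interval runs from 0.817 to 2.11 times the control level. How much of its width comes from depth and how much from spread between libraries was not tested. Within the span of Hen1 lies CG8878, on the other strand and with no exon base shared, at 1595 counts on average.

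Mt2 (FBgn0028707; 2L, 12096525 to 12097687, plus strand) was counted 92, 60 and 68 times in dsLacZ and 90, 116 and 64 times in the dsFib-labelled libraries. Its scaled levels were 6.72, 5.04 and 4.83 CPM against 7.96, 8.64 and 4.43 CPM. Replicate 3 labelled dsFib was the lowest of the 6 libraries and replicate 2 labelled dsFib the highest. The log2 fold change of Mt2 was 0.34 (SE 0.30, 95% interval -0.34 to 1.02; edgeR adjusted p = 0.643), and it was 0.59 without dsFib replicate 3 and 0.17 without dsFib replicate 2.

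**Figure D2:**
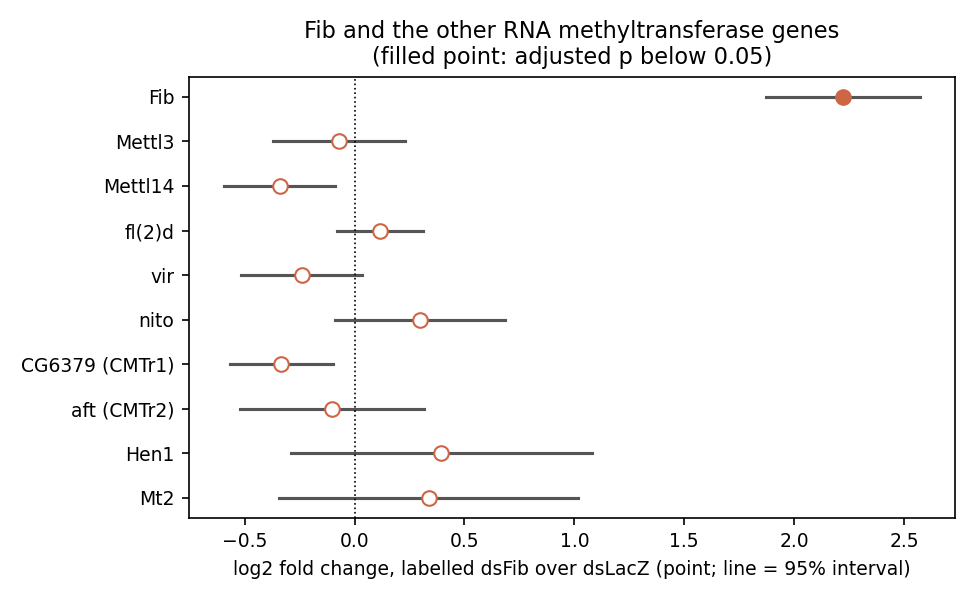
Log2 fold change (horizontal axis), libraries labelled dsFib over dsLacZ, with its 95% interval from the edgeR fit, for Fib, the 7 members, CG6379 and aft. Fib lies at 2.22 and is the single filled point; the 9 other genes lie between -0.34 and 0.39, and the intervals of Mettl14 and CG6379 leave out 0 before adjustment for the number of genes tested.

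Target tRNAs of Mt2 can be counted in the same libraries, although their methylation was not measured by these counts. In flies these are tRNA-Asp-GTC, tRNA-Val-AAC and tRNA-Gly-GCC, summed here over 14, 6 and 14 genes because copies share reads. Of all counts, tRNA-Asp-GTC took 0.0380%, 0.0512% and 0.0369% in dsLacZ and 0.0349%, 0.0308% and 0.0352% in the dsFib-labelled libraries. The groups did not overlap. Of 45 nuclear tRNA kinds with a summed count of at least 60, 1 lay higher without overlap, and tRNA-Asp-GTC was the 1 that lay lower (2.22%). The difference of the means was -0.00839 percentage points with p = 0.1 in a two-sided exact permutation test, the lower limit for 3 libraries against 3 (0.2 after Benjamini-Hochberg adjustment over 8 tests). Without dsLacZ replicate 2, which had the highest value, the difference was -0.00381 percentage points.

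The other two target tRNAs overlapped between the groups as shares of all counts. The share of tRNA-Gly-GCC was 0.0922% ± 0.0236 in dsLacZ and 0.0931% ± 0.00775 in the dsFib-labelled libraries (SD, n = 3 each, exact permutation p = 1). That of tRNA-Val-AAC was 0.0508% ± 0.0170 and 0.0454% ± 0.00429 (exact permutation p = 1). Read as a share of nuclear tRNA counts alone, tRNA-Val-AAC went from 0.379% ± 0.00777 to 0.312% ± 0.0118 and tRNA-Asp-GTC from 0.322% ± 0.0377 to 0.231% ± 0.00201, both without overlap and with exact permutation p = 0.1 (0.2 adjusted). On that scale 12 of the 45 tRNA kinds (26.7%) lay lower without overlap and 5 lay higher. Whether the tRNA share of the libraries, which was highest in dsLacZ replicate 2, bears on these values was not tested.

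**Figure D3:**
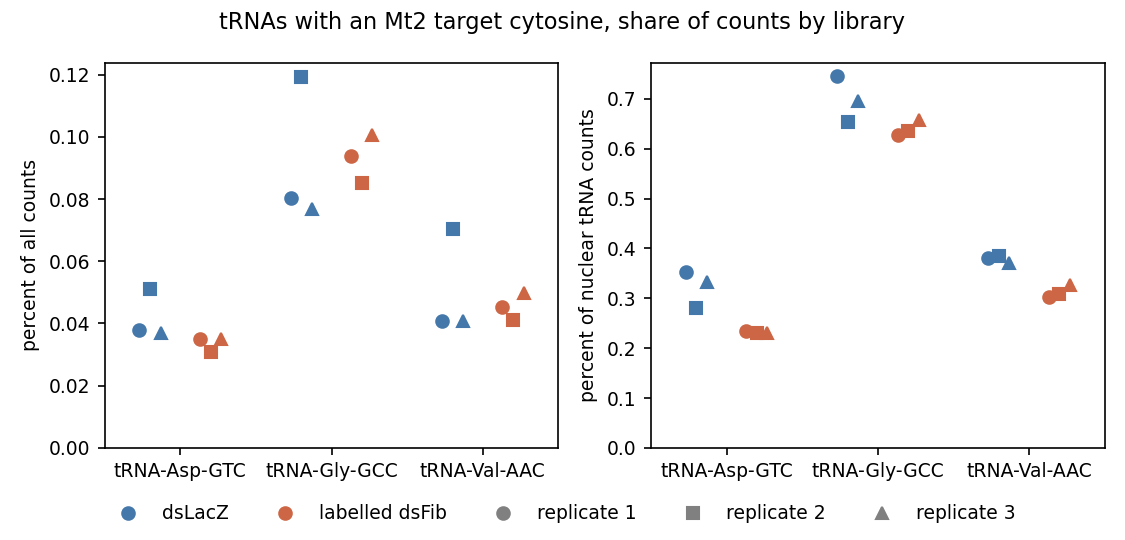
Share of counts (vertical axes, from 0) of the 3 target tRNAs of Mt2, as percent of all counts (left) and of nuclear tRNA counts (right); each symbol is 1 library. The libraries labelled dsFib lie below all control libraries for tRNA-Asp-GTC on both scales and for tRNA-Val-AAC on the right alone, and dsLacZ replicate 2 is highest in all 3 on the left.

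Levels per length order the genes differently from CPM, since vir and nito have long transcripts. In deposited TPM, CG6379 was highest, at 74.7 ± 14.2 in dsLacZ and 55.0 ± 3.53 in the dsFib-labelled libraries. Mettl14 followed at 13.9 ± 2.08 and 10.3 ± 0.317 TPM, then fl(2)d at 10.8 ± 2.59 and 10.8 ± 1.25 TPM. Next were nito at 7.28 ± 3.12 and 8.05 ± 1.75 TPM, vir at 6.45 ± 2.08 and 5.01 ± 1.16 TPM, and Mettl3 at 5.80 ± 1.51 and 5.05 ± 0.270 TPM. The low end was aft at 3.22 ± 1.01 and 2.72 ± 0.557 TPM, Mt2 at 2.16 ± 0.862 and 2.52 ± 0.996 TPM, and Hen1 at 1.56 ± 0.886 and 1.83 ± 0.520 TPM (SD, n = 3 each).

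Some neighbours in this order changed places between libraries. CG6379 lay above Mettl14, fl(2)d above nito, Mettl3 above aft and Mt2 above Hen1 in 6 of 6 libraries. Mettl14 lay above fl(2)d in 4 of 6 libraries, nito above vir in 5, aft above Mt2 in 4 and vir above Mettl3 in 3. These counts pool the groups. The log2 ratio of Mettl14 to fl(2)d was 0.28 to 0.56 in dsLacZ and -0.20 to 0.05 in the dsFib-labelled libraries. That of nito to vir was -0.14 to 0.26 in dsLacZ and 0.67 to 0.72 in the dsFib-labelled libraries. The catalytic subunit Mettl3 had a lower level per length than its partner Mettl14, by a log2 ratio of 0.92 to 1.42 in the 6 libraries. The lengths implied by the deposited CPM and TPM are those of the annotated exons for 6 of the 9 genes, and 86.3%, 89.5% and 90.4% of them for fl(2)d, nito and CG6379, whose TPM is therefore higher than annotated exons would give.

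**Figure D4:**
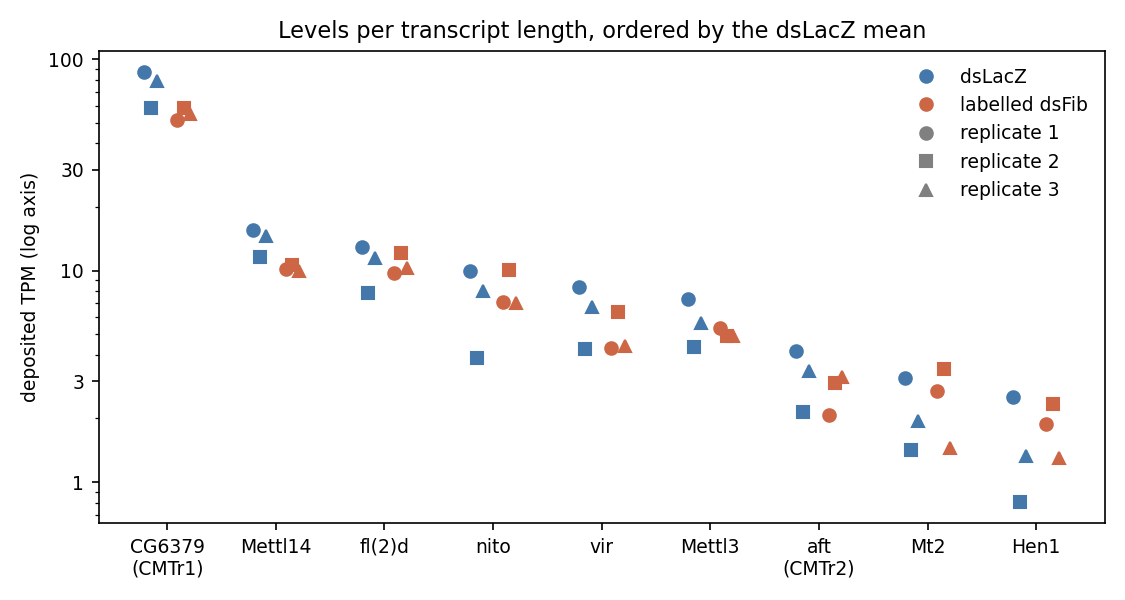
Deposited TPM (vertical log axis) of the 9 genes in each library, ordered by the dsLacZ mean; colours mark the groups and symbols the replicate numbers. CG6379 stands above the rest in all libraries, Hen1 is at the low end at 0.807 to 2.54 TPM, and dsLacZ replicate 2 is the lowest control library for each gene.

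Other genes around these enzymes were counted in 6 lists of names, 47 tested genes in all, of which 23 lay above 0 and 24 below. None passed the edgeR test and limma-voom called 0. DESeq2 called 1, bin3, where it called 320 of all 8302 genes tested. Before adjustment, p lay below 0.05 for 2 higher and 3 lower genes, against 7.67% of all genes tested higher and 8.26% lower. Among 4 partners and readers of m6A, 0 passed and the median log2 fold change was -0.02. The nuclear reader gene Ythdc1 had -0.11 (SE 0.11, edgeR adjusted p = 0.700), and Hakai, a further subunit of the complex, had -0.12 (SE 0.15, edgeR adjusted p = 0.746). Of 3 tested genes of the sex determination pathway, the splicing factor gene tra had 0.43 (SE 0.32) and the dosage compensation gene msl-2 had 0.04 (SE 0.25), with a median of 0.04. Sxl had -0.08 (SE 0.50, 95% interval -1.22 to 1.07), at 2.11 ± 0.14 CPM in control cells and 1.99 ± 1.30 CPM in the dsFib-labelled ones.

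Among 9 tested cap enzyme and cap-binding genes, the median was 0.06. Here bin3, whose product caps 7SK RNA with a methyl group, had 96.8 ± 6.65 CPM in control cells and 127.1 ± 5.79 CPM in the dsFib-labelled ones, without overlap. Its log2 fold change was 0.39 (SE 0.09, edgeR adjusted p = 0.0961; DESeq2 adjusted p = 0.0325). The decapping gene DCP1 had 0.22 (SE 0.13, edgeR adjusted p = 0.430). Of 11 tested genes of the small RNA pathways that Hen1 serves, the median was -0.06. AGO3, which binds piRNAs, had 10.4 ± 1.61 and 15.1 ± 1.89 CPM and a log2 fold change of 0.54 (SE 0.18, edgeR adjusted p = 0.204). The piRNA-binding gene aub had -0.18 (SE 0.09, edgeR adjusted p = 0.349).

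The 12 other tRNA methyltransferase genes tested had a median of -0.03. Before adjustment 3 of them had an edgeR p below 0.05, all lower, where 8.26% of all genes tested did so. After adjustment 0 passed. Nsun2, which methylates cytosines of tRNAs, had 654.5 ± 62.6 CPM in control cells and 515.6 ± 41.0 CPM in the dsFib-labelled ones, a log2 fold change of -0.34 (SE 0.12, edgeR adjusted p = 0.209). CG6388, a Trm1 gene by its RefSeq name, had 54.8 ± 1.18 and 43.1 ± 3.54 CPM and a log2 fold change of -0.35 (SE 0.10, edgeR adjusted p = 0.144). The groups did not overlap for either gene, nor for 23.2% of all genes tested. Of 8 tested base methyltransferases of ribosomal and U6 RNA, 0 had an unadjusted p below 0.05 and the median was -0.02. Nsun5, for ribosomal RNA, had -0.13 (SE 0.14), and CG12975, the methyltransferase activator Trmt112, had 0.19 (SE 0.26). In these lists Tgs1, fid, CG9666 and mtTFB1 had a count of 0 in all 6 libraries, which allows up to 0.198 to 0.257 CPM per library (3 counts of its total, for counting error only). Whether the counting method could assign reads to these genes was not tested.

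By the rule for genes of like pattern, the 3 tested genes whose log2 CPM over the 6 libraries had the highest Pearson correlation with Mettl14, the member with the smallest p, were snoRNA:Me28S-C788a (r = 0.998), snoRNA:Me28S-C3351 (r = 0.994) and dare (r = 0.994). For vir, the member with the highest mean CPM, they were Epac (r = 0.996), CG2247 (r = 0.993) and Caf1-105 (r = 0.989). These are the highest of 8301 correlations over 6 libraries in 2 groups, and are given as a description. Among the members themselves, r ranged from -0.89 for nito with Mettl14 to 0.86 for Mt2 with Hen1, and it was 0.48 for Mettl3 with Mettl14.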

How the data were processed

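The 6 libraries were grouped by their titles. Per the file headers, each deposited table lists for every gene its estimated count together with CPM and TPM values. Cutadapt 3.4, Bowtie2, STAR and build dm6 appear in the submitters' processing notes without roles, and CoCo as counter in the table names; its version, the annotation and the use of strand were not stated. The deposited CPM is the estimated count per library total, and the deposited TPM is per length, by the authors.

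Estimated counts were rounded to whole numbers and fitted with edgeR 4.0.16 (R 4.3.3): filterByExpr, which left 8302 genes, TMM, and the quasi-likelihood test with the group as the single term, with p-values adjusted by Benjamini-Hochberg over all genes tested at 0.05. Levels are TMM-scaled CPM except for marker genes and genes at 0, whose CPM is as deposited. The edgeR fit alone was tested on simulated counts. DESeq2 1.42.0 and limma-voom (limma 3.58.1), other scalings and filters, a replicate block and leaving out each library were alternatives. Coordinates are from the Ensembl annotation of BDGP6, which has dm6 coordinates. The rule for named genes took all members, the 2 genes with the smallest p of each list, genes past the threshold, genes overlapping a member, and the genes of like pattern. CG6379, aft and Sxl, and the markers and genes at 0, were named in addition. Members and lists were chosen with earlier results of these data known.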

Additional observations from a re-analysis of the deposited data

How the results depend on the processing

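The 7 members gave 0 calls under each of the 14 alternatives tried. Over these alternatives, 124 of 126 log2 fold changes of the 7 members, CG6379 and aft kept their direction and their side of the threshold; Mettl3 changed sign without dsFib replicate 2 (0.037; range -0.14 to 0.037 over libraries left out) and aft without dsFib replicate 1 (0.037; range -0.29 to 0.037). The smallest adjusted p among the 126 was 0.0966. Over all genes the count of 75 calls (44 higher, 31 lower) was 31 with total counts alone (5 higher, 26 lower), 320 with DESeq2 and 283 with no filter on low counts. It lay between 2 and 310 with 1 library left out (2 without dsFib replicates 1 and 3, 3 without dsLacZ replicate 3, 7 without dsFib replicate 2, 113 without dsLacZ replicate 1 and 310 without dsLacZ replicate 2). With the replicate block it was 1, with 0 calls among the members and Fib at an adjusted p of 0.0602; same-numbered libraries did not deviate together (r of -0.04, -0.19 and -0.11), so the numbers were not taken as pairs. The share of all counts of the 3 target tRNAs of Mt2 together differed by -0.0128 percentage points, and by -0.0279 to 0.0151 with 1 library left out, above 0 without dsLacZ replicate 2. For tRNA-Gly-GCC the difference of 9.06e-04 was -0.0582 as a share of nuclear tRNA counts and -0.00671 to 0.0145 with 1 library left out; for tRNA-Val-AAC it was -0.0103 to 0.00448. The causes were not tested. Hen1 and Mt2, with 48 to 116 counts per library, have the widest intervals.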
